A study of Mus musculus with 24 samples.

Results

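The genes of oxidative phosphorylation were followed in RNA from 24 libraries of primary murine bone marrow-derived macrophages (BMDMs). Symbols beginning with Nduf and the letter a, b, c, s or v with a number, with Uqcr, with Cox4 to Cox8 and the letter a, b or c, or with Atp5, and the mt- symbols of the respiratory chain, selected 98 of the 35770 named genes in the deposited table, and 14 symbols containing -ps were left out. Of the 98 members, 85 are encoded in the nucleus and 13 in the mitochondrial DNA (mtDNA). The nuclear members were 42 genes of complex I, 8 of complex III, 17 of complex IV and 18 of the ATP synthase. The mtDNA members were 7 genes of complex I, 1 of complex III, 3 of complex IV and 2 of the ATP synthase. The selection was by symbol, so Ndufa4, now regarded as a complex IV subunit, was counted with complex I, and Cox4i1, Cyc1, Cycs and the complex II genes were not members.

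Complexes I, III and IV pass electrons to oxygen and pump protons across the inner mitochondrial membrane, and the ATP synthase uses the proton gradient to make ATP. Their subunits come from separate genomes: nuclear genes are transcribed one by one by RNA polymerase II, whereas mtDNA genes are transcribed by Polrmt as long polycistronic RNAs that are cut into messengers. In macrophages, the balance of oxidative phosphorylation and glycolysis is known to differ between inflammatory and alternatively activated states.

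The study compared the response of macrophages to conditioned media (CM) from the mouse Lewis lung carcinoma line LL2, and to CDDO-Me, a synthetic triterpenoid that activates NRF2. C57BL/6 progenitors had been differentiated with M-CSF at 20 ng/mL, and the BMDMs of all groups then received 100 nM CDDO-Me or vehicle for 24 h. The 4 media were control media from plates without cancer cells, and CM that LL2 cells had conditioned for 48 h, used at 75%: WT CM, or CM of cells with KEAP1 or with NRF2 knocked out. Each medium with vehicle or CDDO-Me gave 8 groups, named here medium/treatment, as in media/vehicle. The knockouts (KO) were in the cancer cells, and the macrophages were unedited in every group. The labels name 3 replicates per group without saying whether they came from separate animals, so p-values measure the spread between these samples, which may be technical.

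All 7 macrophage markers examined, Csf1r and Lyz2 among them, were above 1 TPM (a length-corrected share of all transcripts, on a common total) in all 24 libraries, with Lyz2 between 12080 and 34330 TPM. The defining lymphocyte markers Cd3e and Ms4a1 stayed under 1 TPM, as did the epithelial marker Epcam, whose highest value was 0.272 TPM. Of 9 fibroblast markers, 8 were above 1 TPM in all 24 libraries and Lum in 7 of them. Their summed level was 1197 TPM on average in media/vehicle and 1182 TPM in media/CDDO-Me BMDMs, and 835 TPM in WT CM/vehicle against 400.5 TPM in WT CM/CDDO-Me BMDMs. Of 7 neutrophil markers, S100a8 and S100a9 were above 1 TPM in all 24 libraries, Ngp in 17, Camp in 4 and Elane in 1, whereas Ly6g and Mpo stayed under 1 TPM. Their summed level was higher on average with CDDO-Me in every medium, at 38.6 against 22.8 TPM in control media, 45.4 against 20.0 TPM in WT CM, 70.5 against 20.7 TPM in KEAP1 KO CM and 50.5 against 21.1 TPM in NRF2 KO CM. The fibroblast markers enter below as a covariate in an alternative fit. Their level was itself lower on average with CDDO-Me in WT CM, so that fit cannot tell the markers and the treatment apart. The part of the neutrophil markers in the CDDO-Me results was not tested. In bulk RNA, fewer cells of a type and less RNA per cell cannot be told apart.

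A pair of libraries stood apart from the rest. Replicate 3 of NRF2 KO CM/vehicle had 15702 genes above 0 TPM and replicate 3 of NRF2 KO CM/CDDO-Me had 16299, against 17817 to 18993 in the other 22 libraries. Each comparison below is therefore given from a limma fit of all 24 libraries and from a fit of the 22 libraries without this pair. A member is called where its adjusted p (Benjamini-Hochberg over all genes tested, 13661 with 24 libraries and 13562 with 22) was under 0.05. Differences are on the scale of log2(scaled TPM + 1), with their standard error (SE). TPM carry no read totals, and the depth of each library is unknown.

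Of the 85 nuclear members, 78 passed the filter on low values (TPM above 1 in at least 3 libraries), as did all 13 mtDNA members. The nuclear members that did not pass were Cox6c2, Cox7b2, Cox8b, Cox8c, Ndufa11b, Ndufb11b and Ndufs6b, none above 0.608 TPM in any library. Cox8b and Cox8c, tissue-restricted isoforms of a complex IV subunit, were listed at 0 TPM throughout, whereas the common isoform Cox8a averaged 664.7 TPM. Cox6a1 averaged 697 TPM against 2.09 TPM for Cox6a2, the isoform of heart and skeletal muscle. The nuclear member with the highest mean was Atp5f1b, the catalytic beta subunit of the ATP synthase, at 836.8 TPM over the 24 libraries. Among the mtDNA members, mean levels ran from 721.7 TPM for mt-Nd5 to 5003 TPM for mt-Co1.

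The mtDNA members lie on a circle of 16299 bases (GRCm39, genes as annotated by GENCODE), 12 of them on the plus strand and mt-Nd6 on the minus strand. The gene for the small ATP synthase subunit mt-Atp8 (chrM:7766-7969, plus strand) is shown because it differed most between the libraries that stood apart and their replicates. Capitals mark its last 43 bases, which are also the start of mt-Atp6, so that reads from this stretch belong to both genes.
mt-Atp8: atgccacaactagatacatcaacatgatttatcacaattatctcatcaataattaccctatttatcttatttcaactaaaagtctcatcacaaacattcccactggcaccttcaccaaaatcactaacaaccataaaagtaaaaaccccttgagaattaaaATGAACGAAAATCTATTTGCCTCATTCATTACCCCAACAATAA

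The promoters of Ndufs6 and Ndufs3, complex I genes that were called with CM and with CDDO-Me respectively, are shown from 250 bases before to 50 bases after the start of the gene (RefSeq, GRCm38.p6). The Ndufs6 promoter is chr13:73328433-73328732 on the minus strand, with matches to the motifs of NRF1 (GCGCANGCG, read on the other strand) and YY1 (AAGATGGC) in capitals. The Ndufs3 promoter is chr2:90904672-90904971 on the minus strand, with a match to the ETS motif (CCGGAAGT, read on the other strand) in capitals.
Ndufs6: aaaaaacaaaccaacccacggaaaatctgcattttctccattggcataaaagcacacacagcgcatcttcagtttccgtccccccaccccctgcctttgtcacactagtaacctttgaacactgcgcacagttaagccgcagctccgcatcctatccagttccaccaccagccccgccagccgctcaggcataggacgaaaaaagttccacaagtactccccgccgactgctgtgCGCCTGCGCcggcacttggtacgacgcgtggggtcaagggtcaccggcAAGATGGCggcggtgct
Ndufs3: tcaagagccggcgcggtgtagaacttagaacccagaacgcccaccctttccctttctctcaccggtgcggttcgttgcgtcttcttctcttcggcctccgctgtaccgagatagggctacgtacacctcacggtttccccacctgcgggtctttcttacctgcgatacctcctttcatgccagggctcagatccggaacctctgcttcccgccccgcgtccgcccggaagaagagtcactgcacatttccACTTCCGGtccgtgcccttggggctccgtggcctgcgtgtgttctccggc
Promoters were found for 65 of the 85 nuclear members, and both strands were searched. The motif of NRF1, a factor known to act on many respiratory chain genes and distinct from NRF2 (Nfe2l2), was in 18 of them (27.7%) against 7.03% of all 27025 promoters. The YY1 motif was in 10 (15.4%) against 3.19%, and the ETS motif in 5 (7.69%) against 4.31%. The antioxidant response element bound by NRF2 (TGACNNNGC) was in 9 (13.8%) against 14% of all promoters. A match is a description of letters and not of a bound site.

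The 2 compartments varied to a different extent over the groups. In media/vehicle BMDMs the 13 mtDNA members took 3.05, 2.90 and 2.81% of all transcripts, and the 85 nuclear members took 1.58, 1.65 and 1.63%. The nuclear share was 1.83, 1.91 and 1.89% in WT CM/vehicle and 1.89, 1.97 and 1.94% in KEAP1 KO CM/vehicle BMDMs, above every media/vehicle library. It was 1.62, 1.70 and 1.44% in NRF2 KO CM/vehicle BMDMs, which overlapped with media/vehicle.

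The mtDNA share was lowest where CM from WT or KEAP1 KO cells was combined with CDDO-Me. It was 2.08, 1.85 and 1.54% in WT CM/CDDO-Me and 1.88, 1.86 and 1.60% in KEAP1 KO CM/CDDO-Me BMDMs, below every library of the other 6 groups. The vehicle counterparts had 3.32, 2.87 and 2.97% with WT CM and 3.21, 2.50 and 2.56% with KEAP1 KO CM. With control media, CDDO-Me libraries had 2.95, 2.63 and 2.44%, which overlapped with media/vehicle. The log2 ratio of the nuclear to the mtDNA share was 0.06 ± 0.22 (SD, n = 3) in WT CM/CDDO-Me and 0.01 ± 0.15 (SD, n = 3) in KEAP1 KO CM/CDDO-Me BMDMs, against -0.70 ± 0.15 and -0.51 ± 0.23 (SD, n = 3 each) with vehicle and -0.85 ± 0.09 (SD, n = 3) in media/vehicle.

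**Figure D1:**
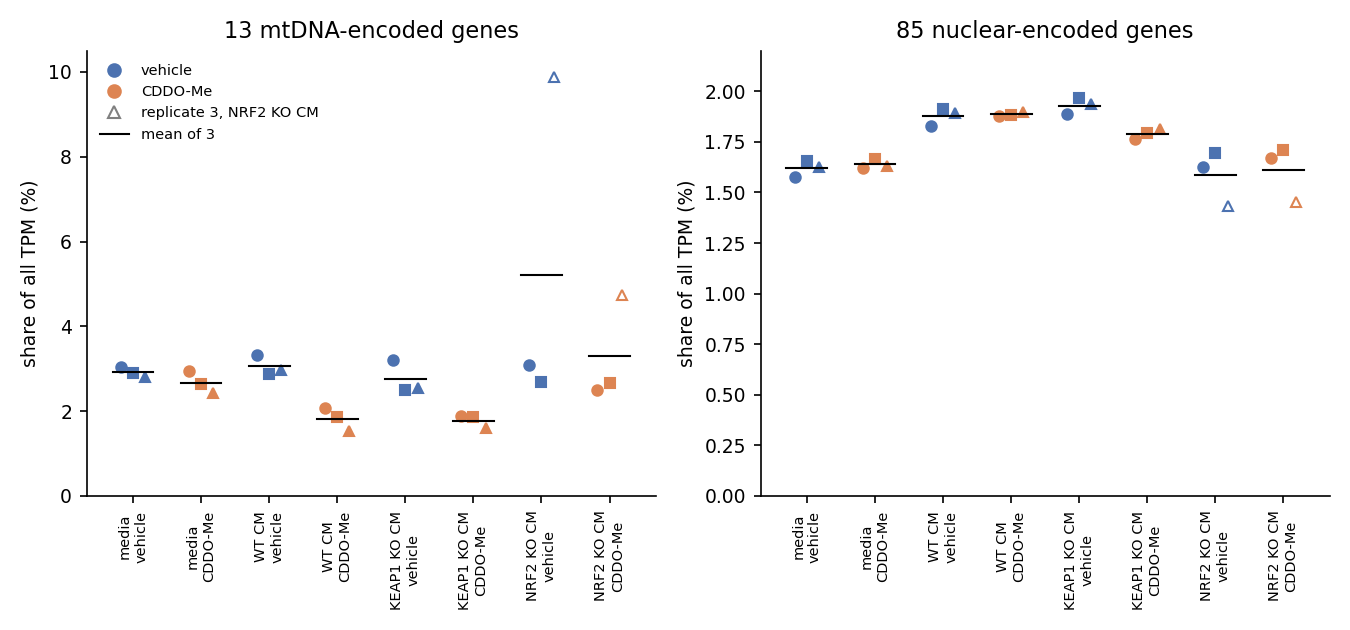
Share of all transcripts (percent of total TPM) taken by the 85 nuclear-encoded and the 13 mtDNA-encoded members in each library of the 8 groups. Circles, squares and triangles are replicates 1, 2 and 3, hollow triangles are replicate 3 of the NRF2 KO CM groups, and bars are means of 3. The nuclear share is 1.83 to 1.97% in the CM/vehicle libraries of WT and KEAP1 KO against 1.58 to 1.65% in media/vehicle, and the mtDNA share falls to 1.54 to 2.08% in their CDDO-Me libraries.

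Replicate 3 of both NRF2 KO CM groups departed from this pattern in both compartments. Its mtDNA share was 9.87% with vehicle, against 3.08 and 2.69% in its replicates, and 4.74% with CDDO-Me, against 2.49 and 2.66%. Against the mean of replicates 1 and 2, all 13 mtDNA members were higher in replicate 3 of NRF2 KO CM/vehicle, with a median log2 difference of 1.74 (0.75 to 4.11). The same 13 were higher with CDDO-Me, with a median of 0.69 and a range up to 2.78. mt-Atp8 was at 675 and 550 TPM in replicates 1 and 2 and at 10563 TPM in replicate 3 of NRF2 KO CM/vehicle, a 17.2-fold difference, and it was 6.87-fold higher in replicate 3 with CDDO-Me.

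The nuclear members of the same libraries were lower in 57 of 78 cases with vehicle (median log2 -0.63, -3.69 to 2.01) and in 58 of 78 with CDDO-Me (median -0.42). Atp5f1e, the epsilon subunit of the ATP synthase, was at 41.3 TPM in replicate 3 of NRF2 KO CM/vehicle against a mean of 546.5 TPM in its replicates. Uqcrb, a small subunit of complex III, went the other way, at 795.6 TPM against 196.8 TPM. Over the 78 nuclear genes, the difference in the vehicle library had a Spearman correlation of -0.37 with transcript GC content and 0.22 with transcript length. Both were taken from the longest annotated protein-coding transcript of each gene, which may not be the main one expressed. The correlations are given as a description over genes that share both libraries. Nuclear and mtDNA comparisons of the NRF2 KO CM groups are read below mainly without this pair.

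**Figure D2:**
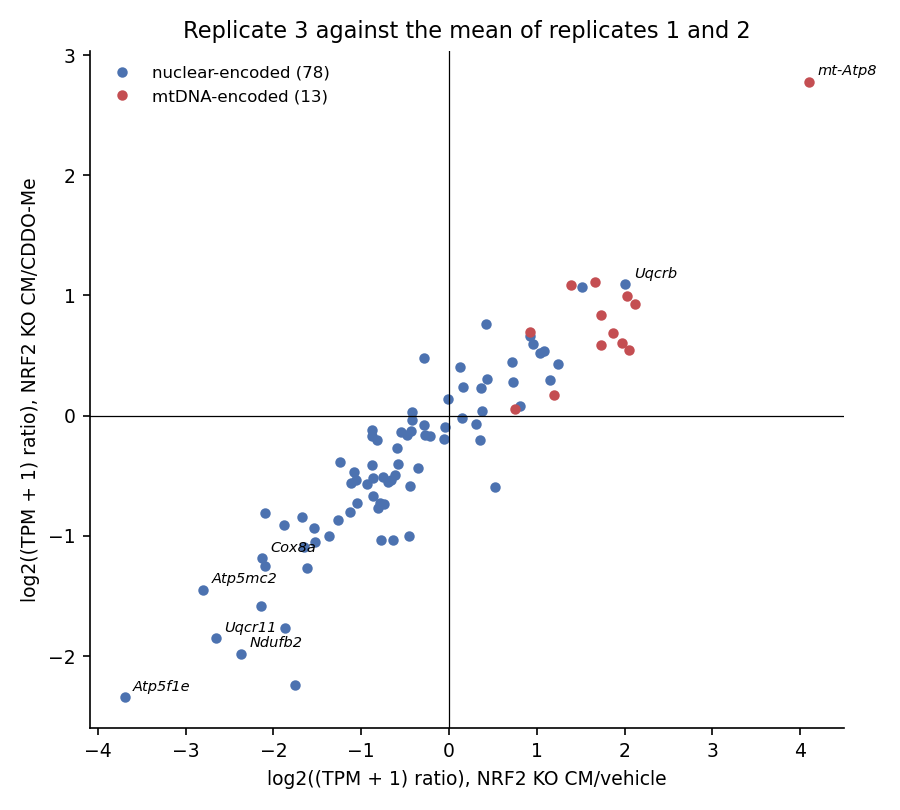
Log2 ratio of replicate 3 to the mean of replicates 1 and 2 for the 78 nuclear and 13 mtDNA members, in NRF2 KO CM/vehicle and NRF2 KO CM/CDDO-Me BMDMs. Each point is a gene. All 13 mtDNA members lie above 0 in both groups, up to 4.11 for mt-Atp8, and 57 and 58 of the 78 nuclear members lie below 0.

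The comparison of WT CM/vehicle with media/vehicle asks how cancer cell CM changes macrophages without CDDO-Me. Nuclear respiratory chain transcripts were higher with WT CM as a group, with 77 of 78 at a positive difference and a median log2 difference of 0.26, beside a median of 0.01 over all genes tested. With 24 libraries, 6 nuclear members rose and 0 fell, 7.69% of the 78, where 7.23% of all genes were called. With 22 libraries, 42 rose and 0 fell, 53.8% of the 78 against 18.8% of all genes, and they held 13 of 39 complex I, 6 of 8 complex III, 9 of 13 complex IV and 14 of 18 ATP synthase genes. The scaled TPM of the groups did not overlap for 60 nuclear members, all higher with WT CM, where 34.9% of all genes did not overlap. Of the 13 mtDNA members, 0 were called by limma in either fit, 0 had an unadjusted p under 0.05 with 24 libraries and 1 had with 22, and their median difference was 0.11, which turned to -0.0059 with the fibroblast covariate.

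Ndufv3, a flavoprotein-arm subunit of complex I, was at 150.5, 137.0 and 142.3 TPM in media/vehicle and at 203.3, 212.6 and 186.5 TPM in WT CM/vehicle BMDMs. Every WT CM library lay above every media library, and the log2 difference was 0.55 (SE 0.09, adjusted p = 0.000558). Ndufs6, an accessory complex I subunit whose promoter is printed above, was at 90.1, 94.6 and 89.7 TPM in media/vehicle and 117.7, 116.0 and 103.7 TPM in WT CM/vehicle BMDMs. Its groups did not overlap either, with a difference of 0.36 (SE 0.07, adjusted p = 0.00381). Neither call was lost when any 1 of 8 libraries was left out, the 6 compared and the pair that stood apart.

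Atp5f1b was at 751.6, 688.9 and 695.3 TPM in media/vehicle and rose to 910.4, 1033 and 934.3 TPM with WT CM (log2 0.50, SE 0.13, adjusted p = 0.0207). Cox7b, a small structural subunit of complex IV encoded on chromosome X, was at 105.4, 120.8 and 122.6 TPM and rose to 151.9, 162.3 and 143.3 TPM (log2 0.46, SE 0.11, adjusted p = 0.00942). Neither gene overlapped between the groups. Ndufb9 of complex I rose by a log2 difference of 0.34 (SE 0.09, adjusted p = 0.0289). Cox6a2, the muscle isoform, rose at a low level, from 1.07, 2.78 and 0.809 TPM to 6.65, 6.48 and 4.49 TPM (log2 1.53, SE 0.36, adjusted p = 0.0109).

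Some of these calls rested on single libraries. Atp5f1b was no longer called without media/vehicle replicate 2 or 3 or without WT CM/vehicle replicate 2 or 3 (adjusted p 0.0616 to 0.0907), Cox7b without media/vehicle replicate 1 (0.0694), and Cox6a2 without media/vehicle replicate 1 or 3 (0.0583 to 0.0653). Ndufb9 was not called without any 1 of the 3 media/vehicle replicates or without WT CM/vehicle replicate 2 or 3 (0.0547 to 0.155). With the replicate number as a block, since same-numbered libraries of these groups deviated together, 11 nuclear members rose in place of 6. Without scaling, 3 nuclear members rose, their median difference was 0.19, and the split of all genes called moved from 599 higher and 389 lower to 486 higher and 523 lower.

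Some core subunits were called in the fit of 22 libraries and not in that of 24. Cox5a, a complex IV subunit of the matrix side, was at 245.4, 262.6 and 272.8 TPM in media/vehicle and 356.9, 362.8 and 360.2 TPM in WT CM/vehicle BMDMs, a difference of 0.54 with adjusted p = 4.42e-05 with 22 libraries and 0.0704 with 24. Over the 22 alternatives its adjusted p ran from 6.67e-07 to 0.22. In the same 22-library fit Atp5f1a, the ATP synthase alpha subunit, had a difference of 0.34 (adjusted p = 0.000854), and Atp5po, the stator subunit OSCP, of 0.42 (4.25e-05). The 24-library values of these genes were 0.219 and 0.234, and over the alternatives they ran from 5.9e-06 to 0.506 and from 1.92e-05 to 0.455.

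KEAP1 KO CM/vehicle BMDMs were compared with the same media/vehicle libraries. The median nuclear difference was 0.23, with 77 of 78 positive, and that of the mtDNA members was -0.10, which turned to 0.0468 with array weights and to 0.0114 without KEAP1 KO CM/vehicle replicate 2. With 24 libraries, 4 nuclear members rose and 0 fell, 5.13% against 8.06% of all genes. With 22 libraries, 38 rose and 0 fell, 48.7% against 21% of all genes. The groups did not overlap for 55 nuclear members, all higher with KEAP1 KO CM, and for 36.3% of all genes. limma called 0 mtDNA members in both fits, with an unadjusted p under 0.05 for 0 and 1 of them.

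The 4 genes that rose with KEAP1 KO CM were Ndufv3, Atp5f1b, Cox7b and Ndufs6. Ndufv3 was at 206.1, 219.1 and 207.1 TPM (log2 0.56, SE 0.09, adjusted p = 0.000471), above every media/vehicle library. Atp5f1b was at 979.5, 1071 and 1025 TPM (log2 0.53, SE 0.13, adjusted p = 0.0131), and lost its call without media/vehicle replicate 2 (0.0602). Cox7b was at 151.0, 175.0 and 166.8 TPM (log2 0.50, SE 0.11, adjusted p = 0.00467). Ndufs6 was at 109.0, 107.8 and 113.2 TPM (log2 0.26, SE 0.07, adjusted p = 0.0324), and was not called without any 1 of the 3 media/vehicle replicates or without KEAP1 KO CM/vehicle replicate 1 or 3 (0.0682 to 0.134). Ndufv3 and Cox7b stayed called without each of the 8 libraries in turn.

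When KEAP1 KO CM/vehicle was compared with WT CM/vehicle directly, limma called 0 members and 0% of all genes with 24 libraries, and 0 members and 0% with 22. An unadjusted p under 0.05 was found for 1 nuclear and 0 mtDNA members with 24 libraries and for 5 and 3 with 22. The median differences were -0.04 for nuclear and -0.24 for mtDNA members. The median of nuclear members was 0.03 without scaling.

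In NRF2 KO CM/vehicle BMDMs the nuclear members were not higher as a group than in media/vehicle. limma called 0 members with 24 libraries, where 0.00732% of all genes were called, and 0 with 22, where 0.00737% were. An unadjusted p under 0.05 was found for 8 nuclear and 0 mtDNA members with 24 libraries and for 1 and 0 with 22. The median nuclear difference was -0.16 with 24 libraries and -0.01 with 22, and the mtDNA median was 0.52 with 24 and -0.08 with 22, so that the sign of the mtDNA median rested on replicate 3 of the NRF2 KO CM groups. The scaled TPM of the groups did not overlap for 2 nuclear members that were higher and 5 that were lower, and for 1824 of all 13661 genes. Ndufv3 was at 169.8, 171.1 and 189.5 TPM and Atp5f1b at 660.7, 801.4 and 463.4 TPM in NRF2 KO CM/vehicle BMDMs. Ndufv3 thus lay above every media/vehicle library, as with WT and KEAP1 KO CM, without being called, whereas Atp5f1b overlapped with media/vehicle. Whether this response differed from that to WT or KEAP1 KO CM was not tested.

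**Figure D3:**
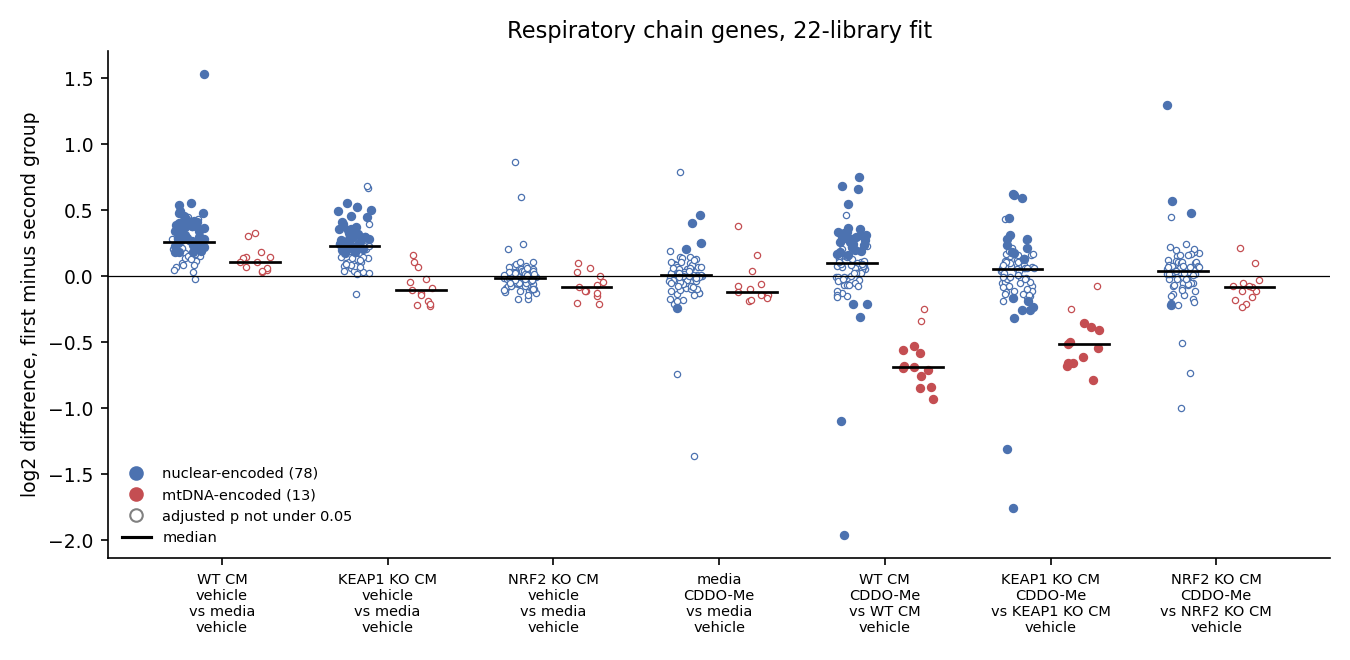
Log2 differences of the members by compartment in the group comparisons, from the fit of 22 libraries. The medians of the NRF2 KO CM comparisons differ in the fit of all 24 libraries. Each point is a gene and the line is the median of the 78 nuclear or 13 mtDNA members. The nuclear members center at 0.26 and 0.23 with WT and KEAP1 KO CM, and the mtDNA members at -0.69 and -0.51 when CDDO-Me is added to them.

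CDDO-Me in control media moved few members. limma called 0 of the 91 tested members with 24 libraries, where 6.02% of all genes were called, and an unadjusted p under 0.05 was found for 1 nuclear and 0 mtDNA members. The medians were 0.01 for nuclear and -0.12 for mtDNA members. With 22 libraries, 4 nuclear members rose, 1 fell and 0 mtDNA members were called, where 14.9% of all genes were called. With a replicate block, 1 rose and 1 fell among the nuclear members.

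Atp5if1, the inhibitory factor that blocks ATP hydrolysis by the synthase, was at 460.3, 521.8 and 478.7 TPM in media/vehicle and at 675.3, 635.7 and 682.3 TPM in media/CDDO-Me BMDMs. All 3 CDDO-Me libraries were above the vehicle libraries, and the difference was 0.47, with adjusted p = 4.33e-05 with 22 libraries and 0.609 with 24, and from 1.36e-05 to 0.833 over the alternatives. In NRF2 KO CM it was at 500.4 and 525.4 TPM with vehicle and 697.8 and 704.0 TPM with CDDO-Me in replicates 1 and 2, and at 1471 and 1469 TPM in replicate 3. The other 4 called with 22 libraries in control media were Atp5mk, Ndufb1 and Ndufa13, which rose by log2 differences of 0.25, 0.40 and 0.20, and Ndufb11, which fell by 0.24. The longest transcript of Ndufb11 shares 990 bases with the overlapping gene Rbm10, and that of Ndufa13 shares 1039 bases with Tssk6, so the values of both are uncertain.

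With WT CM, mtDNA-encoded transcripts were lower with CDDO-Me, while nuclear members went in both directions. All 13 mtDNA members had a negative difference, with a median log2 difference of -0.69 and a range of -0.93 to -0.25, while the nuclear median was 0.10 and that of all genes -0.01. With 24 libraries, 2 mtDNA members fell and 0 rose, and 7 nuclear members rose and 2 fell, 15.4% and 11.5% of those tested, where 27.9% of all genes were called. With 22 libraries, 11 mtDNA members fell and 0 rose, 84.6% against 43.1% of all genes, and 27 nuclear members rose and 5 fell, 41%. The groups did not overlap for 11 mtDNA members, all lower, and for 28 nuclear members that were higher and 8 that were lower, where 50.5% of all genes did not overlap. Without scaling the median of all genes shifted to -0.12, the nuclear median turned to -0.03 with 4 members higher and 3 lower, the mtDNA median was -0.82, and the calls over all genes went from 1976 higher and 1836 lower to 1581 higher and 2459 lower.

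mt-Nd3, a core complex I subunit, was at 2134, 2131 and 2007 TPM in WT CM/vehicle and at 1189, 1148 and 738.8 TPM in WT CM/CDDO-Me BMDMs. The groups were well apart, with a log2 difference of -0.93 (SE 0.21, adjusted p = 0.00189), and the call was not lost without any of the 8 libraries. mt-Cytb, the mtDNA-encoded core of complex III, was at 1761, 1435 and 1479 TPM with vehicle and 977.1, 870.3 and 766.6 TPM with CDDO-Me (log2 -0.71, SE 0.25, adjusted p = 0.0364). Its call was lost without any 1 of the WT CM/vehicle replicates and without WT CM/CDDO-Me replicate 2 or 3 (0.052 to 0.123), and its adjusted p was 8.18e-05 with 22 libraries and ran from 1.38e-06 to 0.123 over the 22 alternatives.

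The mtDNA members that were called only in the 22-library fit had the same estimates with a smaller SE. mt-Nd1 was at 2057, 1801 and 1962 TPM with vehicle and 1153, 1089 and 920.4 TPM with CDDO-Me, a difference of -0.75 with an SE of 0.37 with 24 libraries (adjusted p = 0.157) and of 0.10 with 22 (8.15e-06), and from 1.6e-07 to 0.32 over the alternatives. The differences of mt-Atp6, mt-Nd2, mt-Nd4 and mt-Nd4l were -0.84, -0.84, -0.69 and -0.69, and those of mt-Co3, mt-Co2, mt-Nd5 and mt-Nd6 were -0.68, -0.58, -0.56 and -0.53. mt-Co1 and mt-Atp8 were not called in either fit, with differences of -0.25 and -0.34. A nuclear copy, Gm29216, matches 483 bases at the end of mt-Co1 at 99.8% identity and was listed at a median of 2349 TPM, so the level of mt-Co1 is uncertain.

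Among nuclear members, complex I and IV genes gave most of the calls. Ndufs3, a core subunit of the complex I peripheral arm, was at 101.3, 106.1 and 115.3 TPM in WT CM/vehicle and at 149.1, 151.3 and 176.1 TPM in WT CM/CDDO-Me BMDMs (log2 0.69, SE 0.12, adjusted p = 0.000241). Cox7a2l, a member of the Cox7a family, was at 356.6, 336.2 and 374.1 TPM and rose to 528.8, 499.8 and 513.0 TPM (log2 0.66, SE 0.14, adjusted p = 0.0011). Cox7b rose to 203.3, 199.1 and 209.7 TPM (log2 0.55, SE 0.11, adjusted p = 0.000449). None of the 3 genes overlapped between the groups or lost its call without any of the 8 libraries.

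Ndufb1, a small accessory subunit of complex I, was at 52.2, 54.2 and 49.5 TPM and rose to 83.2, 81.0 and 77.2 TPM (log2 0.75, SE 0.21, adjusted p = 0.0086). Ndufs4 of complex I rose by 0.26 (SE 0.07, adjusted p = 0.00885), Uqcrh, the hinge protein of complex III, by 0.34 (SE 0.10, 0.0146), and Cox7a2, the common isoform of its subunit, by 0.36 (SE 0.10, 0.00727). The last 2 lost their calls without WT CM/vehicle replicate 1, and Uqcrh also without WT CM/CDDO-Me replicate 1 (0.0657 to 0.105). Over the 22 alternatives, the adjusted p of Uqcrh reached 0.148 and that of Cox7a2 0.105. Ndufs4 was lost in 1 of these alternatives, with an adjusted p of 0.279.

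The 2 nuclear members that fell were muscle isoforms at low levels. Cox7a1 was at 15.9, 21.8 and 14.3 TPM with vehicle and 4.55, 4.23 and 1.81 TPM with CDDO-Me (log2 -1.96, SE 0.56, adjusted p = 0.0115), and Cox6a2 fell from 6.65, 6.48 and 4.49 TPM to 3.62, 2.59 and 0.635 TPM (log2 -1.10, SE 0.36, 0.0279). Cox7a1 lost its call without WT CM/CDDO-Me replicate 3 (0.0663) and Cox6a2 without that library or WT CM/vehicle replicate 1 or 2 (0.0811 to 0.214). The summed fibroblast markers moved in the same direction, from 559 to 1154 TPM with vehicle to 213 to 601 TPM with CDDO-Me, and with their mean as a covariate Cox6a2 had an adjusted p of 0.124 and Cox7a1 of 0.029, beside 0.00147 to 0.214 and 2.29e-05 to 0.0663 over the alternatives. With this covariate 5 mtDNA members fell in place of 2. The summed neutrophil markers ran from 11.1 to 36.1 TPM with vehicle and from 33.5 to 59.4 TPM with CDDO-Me, ranges that overlapped.

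**Figure D4:**
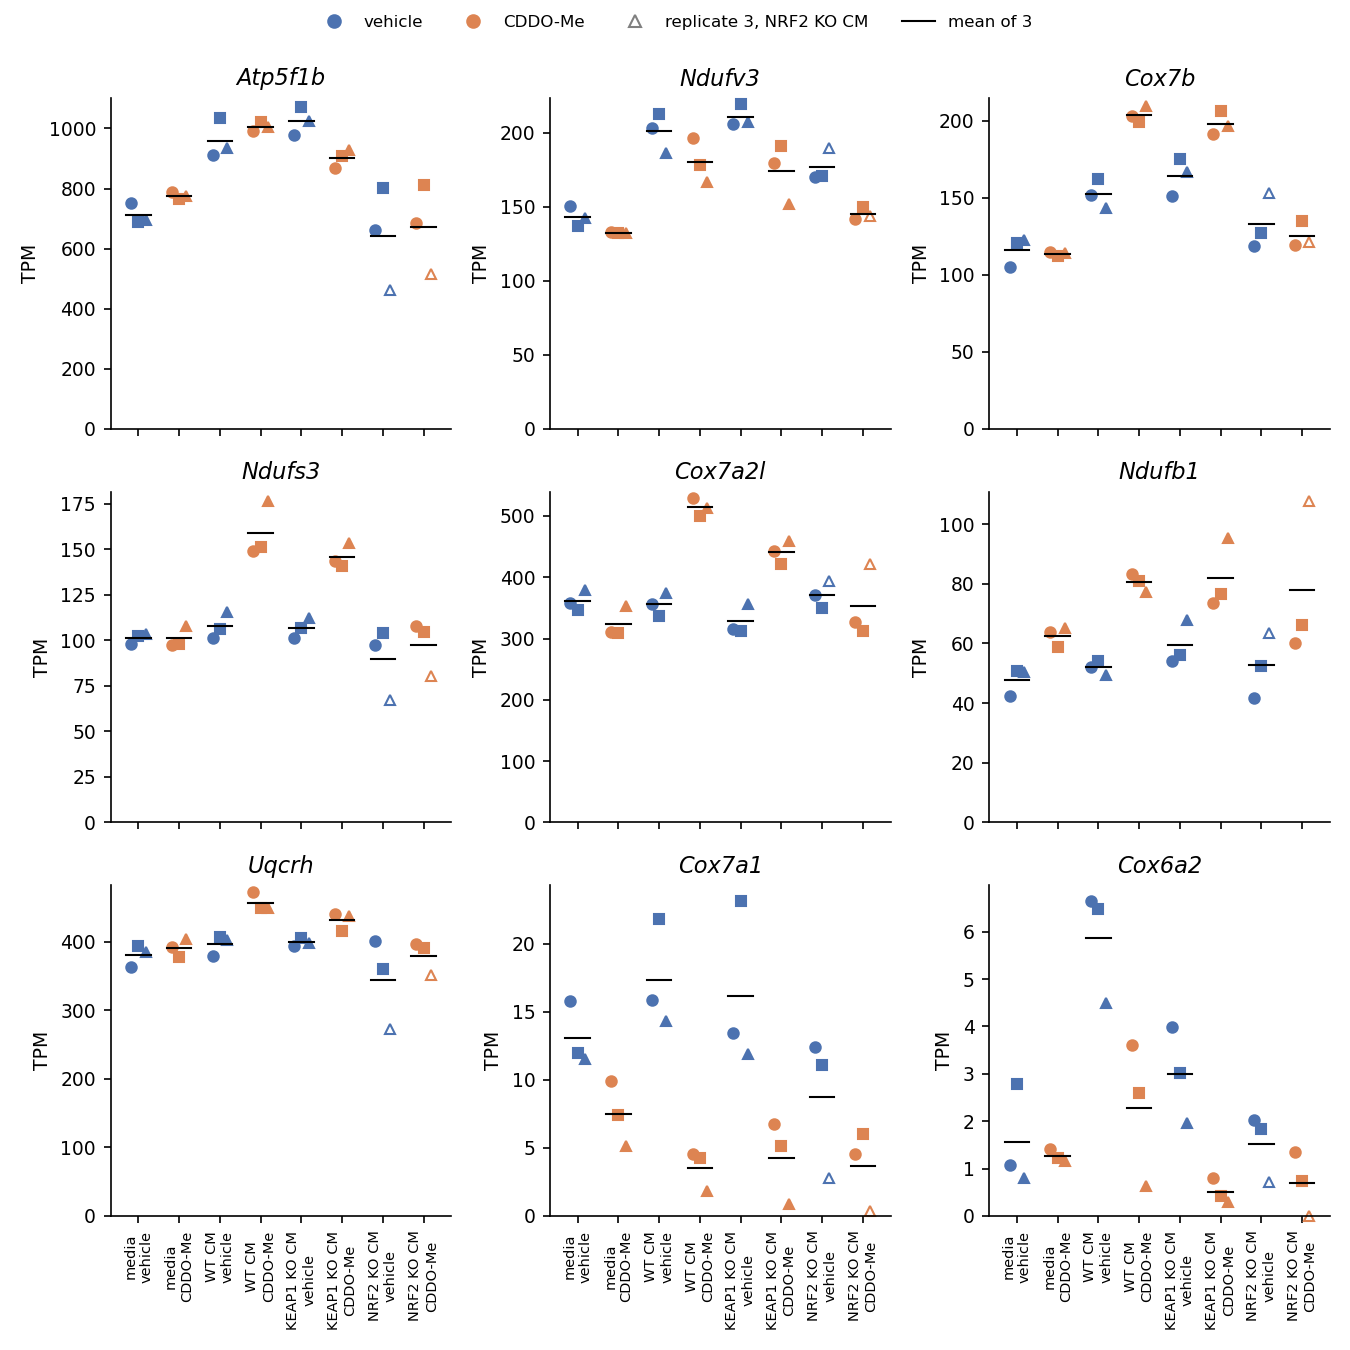
TPM of selected nuclear members in every library by group: Atp5f1b, Ndufv3, Cox7b, Ndufs3, Cox7a2l, Ndufb1, Uqcrh, Cox7a1 and Cox6a2. Circles, squares and triangles are replicates 1, 2 and 3, hollow triangles are replicate 3 of the NRF2 KO CM groups, and bars are means of 3. Ndufs3 is at 149.1 to 176.1 TPM in WT CM/CDDO-Me BMDMs, apart from its vehicle libraries.

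KEAP1 KO CM gave the corresponding comparison on libraries that are not shared with the WT CM comparison. It is not an independent repeat, since both comparisons took their spread from the same fit. Same-numbered vehicle libraries of these media also deviated together (correlations of 0.15, 0.35 and 0.47). The mtDNA median was -0.51, with all 13 members lower, and the nuclear median was 0.05. With 24 libraries, 1 mtDNA member fell, and 6 nuclear members rose and 3 fell, 7.69% and 11.5% of those tested against 28.8% of all genes. With 22 libraries, 11 mtDNA members fell, 84.6%, and 12 nuclear members rose and 8 fell, 25.6%, where 44.8% of all genes were called. The groups did not overlap for 11 mtDNA members, all lower, and for 19 higher and 11 lower nuclear members, where 49.3% of all genes did not overlap. Without scaling the median of all genes was -0.17 and the nuclear median -0.12 with 3 members higher and 6 lower, and the calls over all genes moved from 1975 higher and 1957 lower to 1563 higher and 2950 lower.

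The 6 nuclear members that rose with KEAP1 KO CM were all among the 7 that rose with WT CM, so that the shared genes were 100% and 85.7% of the lists. The 11 mtDNA members called with 22 libraries were the same in both media. The share of all called genes common to both media was not examined, so this overlap is not known to be particular to the members. Between these media, limma called 0% of all genes as differing in the response to CDDO-Me, with 24 libraries and with 22. mt-Nd3 was at 2149, 2068 and 1671 TPM in KEAP1 KO CM/vehicle and 1106, 1017 and 895.9 TPM in KEAP1 KO CM/CDDO-Me BMDMs (log2 -0.79, SE 0.21, adjusted p = 0.00661). mt-Cytb was at 1671, 1263 and 1251 TPM and at 869.0, 896.3 and 765.4 TPM, a difference of -0.54 with adjusted p = 0.111 with 24 libraries and 0.000957 with 22 (2.38e-05 to 0.352 over the alternatives). mt-Co1 and mt-Atp8 again were not called in either fit, with differences of -0.08 and -0.25.

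Ndufs3 was at 101.3, 106.7 and 111.9 TPM with vehicle and 143.3, 140.9 and 153.4 TPM with CDDO-Me (log2 0.62, SE 0.12, adjusted p = 0.000653). Cox7a2l was at 316.0, 312.4 and 356.9 TPM and 442.5, 421.8 and 458.5 TPM (log2 0.60, SE 0.14, 0.00263). Cox7b rose by 0.44 (SE 0.11, 0.00312). These genes did not overlap between the groups, and they and mt-Nd3 kept their calls without each of the 8 libraries in turn.

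Ndufb1, Uqcrh and Cox7a2 rose by 0.62, 0.28 and 0.28 (adjusted p = 0.0276, 0.0395 and 0.0323). All 3 lost their calls with the fibroblast covariate. Over the 22 alternatives their adjusted p reached 0.193, 0.455 and 0.451. Each was also lost without KEAP1 KO CM/vehicle replicate 1 or 2 or KEAP1 KO CM/CDDO-Me replicate 3, Uqcrh and Cox7a2 without KEAP1 KO CM/vehicle replicate 3, Uqcrh without KEAP1 KO CM/CDDO-Me replicate 1 and Cox7a2 without replicate 2 of that group, with adjusted p from 0.0541 to 0.169.

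Of the 3 that fell, Ndufa4 was the abundant one, at 353.8, 374.9 and 352.7 TPM with vehicle and 264.5, 264.0 and 276.0 TPM with CDDO-Me (log2 -0.25, SE 0.08, adjusted p = 0.0208). Cox7a1 fell by 1.75 (SE 0.56, 0.0223) and Cox6a2 by 1.31 (SE 0.36, 0.00889). Ndufa4 was lost without KEAP1 KO CM/vehicle replicate 2 or 3 or KEAP1 KO CM/CDDO-Me replicate 1 or 2 (0.0537 to 0.105), Cox7a1 without KEAP1 KO CM/vehicle replicate 2 or KEAP1 KO CM/CDDO-Me replicate 3 (0.0983 to 0.162), and Cox6a2 without KEAP1 KO CM/vehicle replicate 1 (0.0508). The summed fibroblast markers ran from 789 to 1503 TPM with vehicle and from 171 to 803 TPM with CDDO-Me, and with the covariate Cox7a1 had an adjusted p of 0.161 and Cox6a2 of 0.0696, each close to the highest of its alternatives (0.162 and 0.0696). The summed neutrophil markers ran from 15.7 to 24.6 TPM with vehicle and from 65.6 to 74.2 TPM with CDDO-Me, without overlap.

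With NRF2 KO CM, CDDO-Me changed few members. With 24 libraries 2 nuclear members rose, 0 fell and 0 mtDNA members were called, where 9.61% of all genes were called, and 5 nuclear members were called with a replicate block, 3 of them higher. With 22 libraries, 3 nuclear members rose and 1 fell, where 9.55% of all genes were called. In both fits, 0 mtDNA members were called by limma and 0 had an unadjusted p under 0.05. Without scaling, 1 nuclear member rose and 2 fell. The mtDNA median was -0.41 with 24 libraries and -0.08 with 22, and the nuclear median 0.12 and 0.04.

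Cox6b2, the testis isoform of a complex IV subunit, was at 4.27, 3.73 and 2.22 TPM in NRF2 KO CM/vehicle and 11.4, 10.97 and 4.93 TPM in NRF2 KO CM/CDDO-Me BMDMs (log2 1.17, SE 0.32, adjusted p = 0.0245, with 0.000471 to 0.207 over the alternatives). Its call was lost without NRF2 KO CM/vehicle replicate 3 or NRF2 KO CM/CDDO-Me replicate 1 or 2 (0.0822 to 0.109). Ndufa13 rose by 0.36 (SE 0.10, adjusted p = 0.0217) with 24 libraries, and had a difference of 0.22 and an adjusted p of 0.0924 with 22, with 0.00714 to 0.594 over the alternatives. It was also lost without NRF2 KO CM/vehicle replicate 3 or NRF2 KO CM/CDDO-Me replicate 2 or 3 alone (0.0507 to 0.0669). In the 22-library fit Atp5if1 and Ndufc1 rose by 0.48 and 0.57 and Ndufb11 fell by 0.22 (adjusted p = 0.000392, 0.0113 and 0.0448), where 24 libraries gave 0.651, 0.569 and 0.948.

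Interaction terms tested whether CDDO-Me acted differently in CM and in control media. For WT CM, the difference between CDDO-Me and vehicle was higher than in media for 3 nuclear members, lower for 0 and lower for 1 mtDNA member, where 15.3% of all genes were called. With 22 libraries these were 9 higher and 2 lower nuclear members and 9 lower mtDNA members, where 28.3% of all genes were called. The genes called with 24 libraries were Cox7a2l, Ndufs3, Cox7b and mt-Nd3, with differences of 0.80, 0.67, 0.56 and -0.97 (adjusted p = 0.00802, 0.0122, 0.0142 and 0.0304). The call of mt-Nd3 was lost without media/vehicle replicate 3, any 1 of the WT CM/vehicle replicates, media/CDDO-Me replicate 1 or 2, or WT CM/CDDO-Me replicate 3 (0.0512 to 0.101). Without scaling, the calls over all genes went from 1173 higher and 919 lower to 995 higher and 1159 lower, and 3 nuclear members were higher and 1 lower. In media, CDDO-Me gave mt-Nd3 a difference of 0.04, at 1945, 1909 and 1513 TPM against 1835, 2062 and 1411 TPM.

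For KEAP1 KO CM, the difference was higher than in media for 2 nuclear members and lower for 1, and 0 mtDNA members were called by limma, with an unadjusted p under 0.05 for 1, where 14.8% of all genes were called. With 22 libraries, 7 nuclear members were higher and 2 lower and 6 mtDNA members were lower, where 29.1% were called. The 3 nuclear genes called with 24 libraries were Cox7a2l, Ndufs3 and Ndufa4, with differences of 0.73, 0.60 and -0.36 (adjusted p = 0.0148, 0.0244 and 0.0383). Ndufs3 was lost without media/vehicle replicate 3, KEAP1 KO CM/vehicle replicate 1 or 2, media/CDDO-Me replicate 1 or 2, or KEAP1 KO CM/CDDO-Me replicate 3 (0.0546 to 0.0714). Ndufa4 was lost without 10 of 14 libraries in turn, all but media/vehicle replicate 2, KEAP1 KO CM/CDDO-Me replicate 3 and the pair that stood apart (0.0533 to 0.119). Without scaling, 1 nuclear member was higher and 2 lower, and the calls over all genes went from 1119 higher and 908 lower to 934 higher and 1375 lower. Between KEAP1 KO and WT CM, and between NRF2 KO CM and media, limma called 0 members and 0% of all genes in the response to CDDO-Me with 24 libraries, and 0 and 0% with 22. An unadjusted p under 0.05 was found for 0 members in both with 24 libraries, and for 4 nuclear members between KEAP1 KO and WT CM and 0 members between NRF2 KO CM and media with 22.

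**Figure D5:**
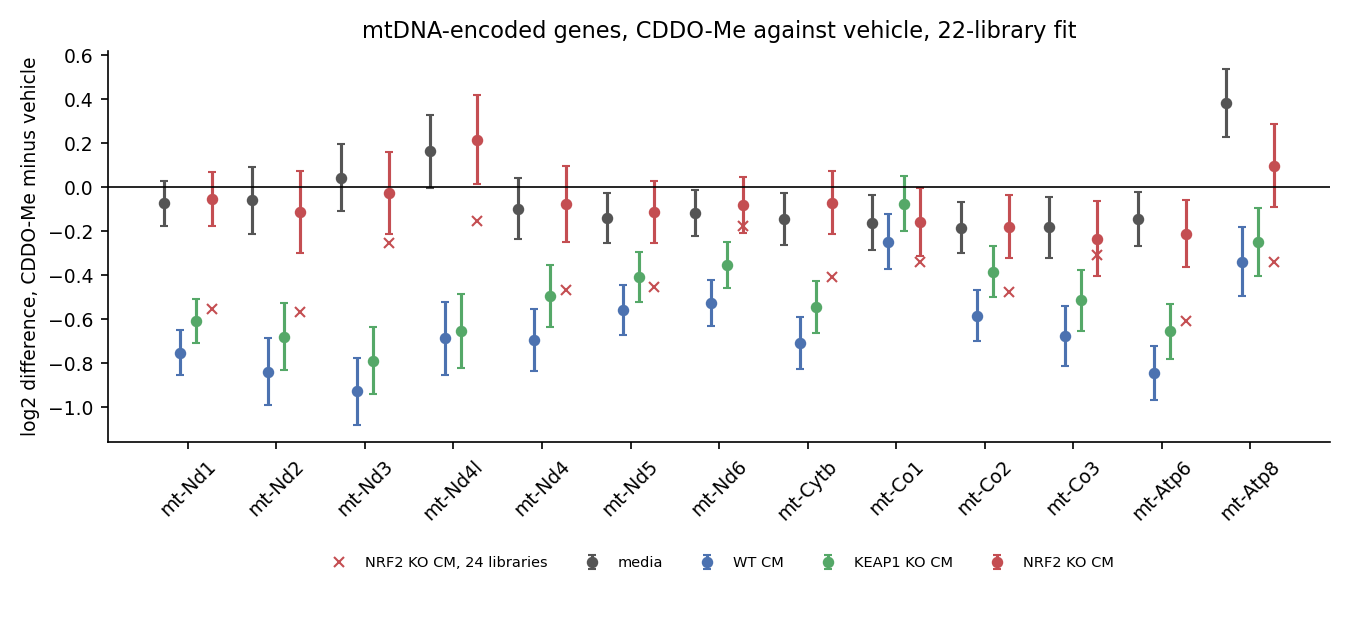
Log2 difference between CDDO-Me and vehicle for each of the 13 mtDNA members in each of the 4 media. Points are estimates and bars are 1 SE, both from the fit of 22 libraries. Crosses are the NRF2 KO CM estimates from the fit of all 24 libraries, whose SE were larger for mtDNA members such as mt-Nd1. mt-Nd3 is at -0.93 in WT CM, -0.79 in KEAP1 KO CM and 0.04 in control media, and mt-Co1 is at -0.25, -0.08 and -0.16.

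Other genes of the pathway were examined from lists chosen for their role. With WT CM and vehicle, 5 of 79 mitochondrial ribosome genes rose and 0 fell with 24 libraries, 6.33% against 7.23% of all genes, and 19 rose and 1 fell with 22, 25.3% against 18.8%. Of 80 cytosolic ribosome genes, 8 rose and 0 fell with 24 libraries (10% of the list) and 62 rose and 0 fell with 22 (77.5%), with a median difference of 0.26, the same as that of the nuclear respiratory chain members. With KEAP1 KO CM and 24 libraries, 8 of 79 mitochondrial and 2 of 80 cytosolic ribosome genes rose and 0 fell, 10.1% and 2.5% of the lists, where 8.06% of all genes were called. The summed cytosolic ribosome level was nonetheless similar in both CM, at 99291.5 TPM on average in KEAP1 KO CM/vehicle and 100533 TPM in WT CM/vehicle BMDMs. It averaged 87004.4 TPM in media/vehicle BMDMs. Of 10 regulators of mitochondrial biogenesis, 2 rose with WT CM and vehicle (20%, where 7.23% of all genes were called), Ppargc1b by 1.06 (SE 0.23, adjusted p = 0.00611) and Myc by 1.03 (SE 0.17, 0.00051). Myc was at 23.4, 25.9 and 25.8 TPM in media/vehicle and 44.9, 54.8 and 49.3 TPM in WT CM/vehicle BMDMs.

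With CDDO-Me in WT CM, 5 mitochondrial ribosome genes rose and 9 fell, and 2 cytosolic ribosome genes rose and 3 fell. Of 14 complex I assembly genes, 0 rose and 3 fell, and of 23 complex IV assembly genes, 3 rose and 1 fell. The shares called were 17.7%, 6.25%, 21.4% and 17.4% of these lists, each below the 27.9% of all genes called in this comparison. Tmem126b, a complex I assembly factor, fell from 34.7, 35.4 and 30.8 TPM to 18.1, 16.5 and 15.6 TPM (log2 -0.84, SE 0.09, adjusted p = 3.25e-07). Coa5, a complex IV assembly factor, rose from 68.4, 66.8 and 69.3 TPM to 236.3, 216.4 and 262.1 TPM (log2 1.92, SE 0.10, 1.5e-11). In KEAP1 KO CM Tmem126b fell by 0.87 and Coa5 rose by 1.81 (adjusted p = 2.14e-07 and 3.55e-11), with 0 of 14 complex I assembly genes higher and 4 lower, 28.6% where 28.8% of all genes were called. Neither gene overlapped between CDDO-Me and vehicle in either medium.

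Among the biogenesis regulators, of which 4 of 10 were called (40%), Pparg and Myc fell and Ppard and Ppargc1b rose with CDDO-Me in WT CM, by -1.76, -1.61, 0.75 and 0.79 (adjusted p = 4e-10, 3.6e-07, 7.46e-05 and 0.0139). Tfam, which packages mtDNA and starts its transcription, was at 32.3, 36.8 and 36.2 TPM with vehicle and 31.8, 22.8 and 31.8 TPM with CDDO-Me, and was not called (log2 -0.16, adjusted p = 0.712). Polrmt had a difference of -0.22 (adjusted p = 0.391), and Nrf1, Gabpa and Esrra were not called either (0.985, 0.613 and 0.565). Of 16 genes of mtDNA transcription and replication, 2 rose and 2 fell (25%), among them Polg, the mtDNA polymerase, at 0.63 (adjusted p = 0.00113), and Tfb1m at -0.54 (0.0263). Of 16 genes of mitochondrial RNA processing and stability, 2 rose and 3 fell (31.2%), with Hsd17b10, a subunit of mitochondrial RNase P, at -0.85 (6.98e-06) and Lrpprc, which stabilises mtDNA-encoded messengers, at -0.31 (0.0134). Both shares were near the 27.9% of all genes called.

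Complex II, which is wholly nuclear-encoded and pumps no protons, split in the same comparison: Sdhb was at 0.47 (SE 0.16, adjusted p = 0.0325) and Sdha at -0.26 (SE 0.09, 0.0292). Cycs, the mobile carrier cytochrome c, rose by 0.72 (SE 0.26, adjusted p = 0.0473), whereas Cox4i1 and Cyc1, core subunits outside the symbol rule, had differences of 0.14 and 0.24 and were not called with 24 libraries (0.472 and 0.799), while Cyc1 was with 22 (0.0196). Of 16 inner membrane carriers and import genes, 4 rose and 0 fell, 25% where 27.9% of all genes were called, with Slc25a5, an ADP/ATP carrier, at 0.52 (0.00154) and Vdac2 at 0.62 (0.0023).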

How the data were processed

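RNA of 24 BMDM libraries was measured, and each library was assigned to 1 of 8 groups by its title. Per the study's methods, poly-A libraries were prepared and sequenced by Novogene and the authors quantified them with Kallisto on GRCm39. The deposited values, 1 per gene symbol, were taken as TPM from the values themselves, although the file is named as length-scaled TPM gene counts. Each library sums to the same total, so the number of reads behind a value is unknown, no count model was fitted, and values carry no interval for counting error. The line without a gene name held 0.0199 to 0.0635% of TPM and was left out. No pair of libraries shared more than 1 identical nonzero value.

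Library factors were computed in the manner of TMM (trims of 30% and 5%), and TPM divided by them were put on a log2 scale with a pseudocount of 1. Genes above 1 TPM in at least 3 libraries were kept. limma 3.58.1 (R 4.3.3) was fitted to all 8 groups with eBayes and a trend, which gave 13661 genes and 16 residual degrees of freedom with 24 libraries, and 13562 genes and 14 with 22. Tests were two-sided, with Benjamini-Hochberg adjustment across every gene kept, for each comparison, and a threshold of 0.05. The fit was tested on simulated data. Tables and figures were made with Python 3.11.15, pandas 2.3.3 and matplotlib 3.10.9. Promoters are on GRCm38.p6 and mtDNA genes on GRCm39. The members and gene lists were chosen with earlier results of these data known.

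The genes named were the 13 mtDNA members, a fixed set of core subunits, paralogs and isoforms, and, in each comparison, the called nuclear members that moved furthest (up to 6 higher and 6 lower), at a mean of at least 1 TPM and without overlap between the groups (no condition on overlap for an interaction). All called members were named where 5 or fewer were called, and from each other list up to 3 called genes with the smallest adjusted p, beside fixed genes.

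Pairing of same-numbered libraries was examined by the correlation of their deviations from the group means. It was positive for every same-numbered pair in every group comparison, while the mean over differently numbered libraries ran from -0.24 to -0.07. It was above 0.1 in all 3 pairs for WT CM/vehicle and media/vehicle (0.14, 0.25 and 0.39). The same held for KEAP1 KO CM/vehicle and WT CM/vehicle (0.15, 0.35 and 0.47). It also held for the 2 groups in control media (0.16, 0.30 and 0.45) and in NRF2 KO CM (0.50, 0.59 and 0.72). In the other group comparisons the lowest pair was at 0.0622 to 0.0968. Fits without a replicate block take no account of this. The labels do not say what a replicate number marks.

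Alternatives were RLE factors, unscaled TPM, totals without mt- genes, no filter, a filter at 5 TPM, pseudocounts of 0.1 and 4, no trend, a replicate block, array weights, fibroblast markers as a covariate, fits of the compared groups alone, fits of 22 libraries, and fits leaving out single libraries. The fit of 22 libraries with the block was added after seeing the data.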

Additional observations from a re-analysis of the deposited data

Results flagged for a closer look

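In 7 cases, the difference between CDDO-Me and vehicle in CM differed from that in control media by an interaction term of the limma fit of all 24 libraries, with p adjusted over all genes. For WT CM, Cox7a2l was higher by 0.80 (SE 0.20, adjusted p = 0.00802), Ndufs3 by 0.67 (SE 0.18, 0.0122) and Cox7b by 0.56 (SE 0.15, 0.0142), and mt-Nd3 was at -0.97 (SE 0.30, 0.0304). For KEAP1 KO CM, Cox7a2l was higher by 0.73 (SE 0.20, 0.0148) and Ndufs3 by 0.60 (SE 0.18, 0.0244), and Ndufa4 was at -0.36 (SE 0.11, 0.0383). With CDDO-Me in control media Ndufa4 was at 341.3, 339.9 and 319.6 TPM, against 290.8, 333.8 and 320.3 TPM with vehicle. The calls of Cox7a2l in both media and of Ndufs3 and Cox7b in WT CM were not lost without any 1 of 14 libraries. The others were lost without single libraries: mt-Nd3 without media/vehicle replicate 3, any 1 WT CM/vehicle replicate, media/CDDO-Me replicate 1 or 2 or WT CM/CDDO-Me replicate 3 (0.0512 to 0.101), Ndufs3 in KEAP1 KO CM without media/vehicle replicate 3, KEAP1 KO CM/vehicle replicate 1 or 2, media/CDDO-Me replicate 1 or 2 or KEAP1 KO CM/CDDO-Me replicate 3 (0.0546 to 0.0714), and Ndufa4 without any 1 of 10 libraries of the 4 groups, all but media/vehicle replicate 2 and KEAP1 KO CM/CDDO-Me replicate 3 (0.0533 to 0.119). With 22 libraries all 7 differences remained called, with adjusted p from 0.00022 to 0.0072.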

How the results depend on the processing

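None of the 40 calls of single named genes reversed in any alternative. All 40 remained with RLE, totals without mt- genes, a pseudocount of 4, a replicate block, array weights and 22 libraries with the block, whereas 12 were lost without scaling, 6 with the fibroblast covariate, 5 without a filter, 3 each with a pseudocount of 0.1, no trend or only the compared groups, and 1 with 22 libraries. With the filter at 5 TPM 37 remained and the other 3 could not be tested. Medians of members, which carry no test, changed sign more often. Without NRF2 KO CM/vehicle replicate 3, the mtDNA median in NRF2 KO CM/vehicle against media/vehicle went from 0.52 to -0.08 and that of CDDO-Me in NRF2 KO CM from -0.41 to 0.18. Without scaling, the nuclear median of CDDO-Me went from 0.10 to -0.03 in WT CM and from 0.05 to -0.12 in KEAP1 KO CM. With vehicle, the mtDNA median against control media went from 0.11 to -0.0059 with the fibroblast covariate in WT CM, and from -0.10 to 0.0468 with array weights in KEAP1 KO CM. TPM keep no read totals, so what depth limits could not be examined.

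For WT CM/vehicle against media/vehicle, the 6 nuclear calls became 3 without scaling, 11 with a replicate block, 45 with array weights, 42 with 22 libraries, 62 with 22 libraries and the block and 31 with only the compared groups, and the 0 mtDNA calls became 2 with 22 libraries and the block. For KEAP1 KO CM/vehicle against media/vehicle, the 4 nuclear calls became 49 with array weights, 38 with 22 libraries, 56 with these and the block and 25 with only the compared groups, and the 0 mtDNA calls became 2 with 22 libraries and the block. For KEAP1 KO CM/vehicle against WT CM/vehicle, 3 nuclear members were called with array weights. For media/CDDO-Me against media/vehicle, the 0 nuclear calls became 2 with the block, 7 with array weights, 1 with the covariate, 5 with 22 libraries, 13 with these and the block and 3 with only the compared groups, and the 0 mtDNA calls became 1 with the last.

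For CDDO-Me in WT CM, the 9 nuclear calls became 37 with array weights, 32 with 22 libraries, 37 with these and the block and 25 with only the compared groups, and the 2 mtDNA calls became 4 without scaling, 1 without a filter, 11 with array weights, 5 with the covariate, 11 with 22 libraries, 12 with these and the block and 12 with only the compared groups. In KEAP1 KO CM, the 9 nuclear calls became 23 with array weights, 20 with 22 libraries and 32 with these and the block, and the 1 mtDNA call became 3 without scaling, 11 with array weights, 11 with 22 libraries, 11 with these and the block and 10 with only the compared groups. In NRF2 KO CM, the 2 nuclear calls became 5 with the block, 10 with array weights, 4 with 22 libraries, 10 with these and the block and 0 with only the compared groups. In the interaction with media for WT CM, the 3 nuclear calls became 5 with the block, 21 with array weights, 5 with the covariate, 11 with 22 libraries, 24 with these and the block and 14 with only the compared groups, and the 1 mtDNA call became 0 without a filter, 9 with array weights, 9 with 22 libraries, 12 with these and the block and 10 with only the compared groups. For KEAP1 KO CM, the 3 nuclear calls became 6 with the block, 13 with array weights, 9 with 22 libraries, 16 with these and the block and 8 with only the compared groups, and the 0 mtDNA calls became 1 without scaling, 8 with array weights, 6 with 22 libraries, 10 with these and the block and 4 with only the compared groups. The cause was not tested.

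Without each library in turn, nuclear calls ran from 3 to 15 for WT CM/vehicle and from 2 to 13 for KEAP1 KO CM/vehicle against media/vehicle, from 7 to 17 for CDDO-Me in WT CM, from 4 to 10 in KEAP1 KO CM and from 0 to 4 in NRF2 KO CM, and from 3 to 4 and from 1 to 4 in the interactions of WT and KEAP1 KO CM with media. mtDNA calls ran from 1 to 9 for CDDO-Me in WT CM, from 1 to 7 in KEAP1 KO CM, and from 0 to 4 and from 0 to 1 in these interactions. Leaving out NRF2 KO CM/vehicle replicate 3 gave the highest counts in 8 of these results (15, 13, 17 and 4 nuclear calls, and 9, 7, 4 and 1 mtDNA calls). For WT CM/vehicle against media/vehicle, 3 were called without media/vehicle replicate 1 or replicate 3, and 10 were called without NRF2 KO CM/CDDO-Me replicate 3. For KEAP1 KO CM/vehicle, 2 were called without media/vehicle replicate 2. For CDDO-Me in WT CM, 1 mtDNA call was made without any 1 WT CM/vehicle replicate or WT CM/CDDO-Me replicate 2 or 3. In KEAP1 KO CM, 5, 4 and 5 nuclear calls were made without KEAP1 KO CM/vehicle replicate 1, replicate 2 and KEAP1 KO CM/CDDO-Me replicate 3. In NRF2 KO CM, 0 and 1 were made without CDDO-Me replicates 2 and 3. In the interaction for WT CM, 0 mtDNA calls were made without media/vehicle replicate 3, any 1 WT CM/vehicle replicate, media/CDDO-Me replicate 1 or 2 or WT CM/CDDO-Me replicate 3. In that for KEAP1 KO CM, 1 nuclear call was made without media/vehicle replicate 3, KEAP1 KO CM/vehicle replicate 1 or 2 or media/CDDO-Me replicate 1 or 2.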
